A study of Mus musculus with 6 samples.

Results

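The 10 genes described here encode enzymes that make serine, one-carbon folates, proline and asparagine. They were found by their symbols in the deposited table of read counts, where 10 of 10 were present among 22105 named genes, and 10 of 10 passed the filter on low counts, with which 12288 genes were tested. The cells were 4T1, an established mouse mammary carcinoma line grown in DMEM with fetal bovine serum. The groups were 3 libraries from cells given the vehicle DMSO and 3 from cells given 10 µM P3FI-90, the KDM3B inhibitor, in each case for 24 h. RNA–seq libraries held 31327094 to 37395732 counts on named genes. The labels give 1 line, 1 dose and 1 time, and do not say whether the libraries of a group came from separate cultures, so the errors below measure the spread between these libraries and may be technical. In bulk RNA, fewer cells with a transcript and less of it per cell cannot be told apart. The 6 epithelial markers checked were all detected, with a summed level of 4132 to 4349 CPM (counts relative to the library's effective size) in DMSO and 1738 to 1822 CPM after P3FI-90, and all 6 were lower. The 8 leukocyte markers summed to 0.931 to 2.57 CPM in DMSO and 3.84 to 4.28 CPM after P3FI-90, and the 4 endothelial markers to 0.343 to 0.844 and 1.03 to 1.48 CPM. The 4 fibroblast markers summed to 40.3 to 41.9 CPM in DMSO and 27.7 to 30.4 CPM after P3FI-90. Most of that sum was Pdgfra, with mean normalized counts of 1355 in DMSO and 958 after P3FI-90, beside 70.1 and 57.5 for Col1a1. Among the leukocyte markers, Csf1r had means of 41.5 and 121, and Ptprc 8.78 and 13.2 with overlapping groups. Such sums are therefore not levels of a cell type. The part of these marker levels in the values below was not tested.

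Cells make serine from the glycolytic intermediate 3-phosphoglycerate, in steps catalysed by PHGDH, PSAT1 and PSPH in turn. The SHMT enzymes then convert serine to glycine and pass its side-chain carbon to tetrahydrofolate, SHMT1 in the cytosol and SHMT2 in mitochondria. In mitochondria, MTHFD2 and MTHFD1L oxidise that carbon and release it as formate, which the cytosolic enzyme MTHFD1 takes up again for nucleotide synthesis. ALDH18A1 and PYCR1 make proline from glutamate, and ASNS makes asparagine from aspartate with glutamine as the nitrogen donor. Many of these genes are known targets of ATF4, the transcription factor of the amino acid and integrated stress responses, which binds composite elements together with C/EBP-family partners. Tumor cells often depend on these pathways for nucleotides, redox cofactors and protein synthesis.

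The genes were chosen by their roles and with their counts in these same 6 libraries already known, so their differences between the groups, and the counts of members past a threshold, are given as a description and not as evidence. After P3FI-90, mean normalized counts were lower for the 3 serine synthesis genes, for Shmt1 and for Mthfd1l, and higher for Mthfd2, Asns, Aldh18a1 and Pycr1, while those of Shmt2 overlapped between the groups. The largest difference in each direction was a 2.23-fold lower mean for Psat1 and a 1.48-fold higher mean for Mthfd2. The 3 P3FI-90 libraries lay entirely above the 3 DMSO libraries for 4 genes and entirely below them for 5, so that 9 of 10 did not overlap. Among all genes tested, 81.2% did not overlap, 41.0% with P3FI-90 above and 40.2% with it below. In edgeR's quasi-likelihood test with a threshold of 0.05 on the adjusted p, 3 of the 10 were on the higher side and 5 on the lower. Pycr1 and Shmt2 did not pass it. Of all genes tested, 79.3% passed that threshold, 39.9% (4908 genes) being higher and 39.4% (4841) lower. Scaled by total counts, the split was 6179 higher and 3641 lower over all genes, and 5 higher and 4 lower among the 10. With upper quartiles, or without the second DMSO or the second P3FI-90 library, 2 of the 10 were past the threshold as higher and 6 as lower, and without the third DMSO library 2 and 5, Aldh18a1 being lost in each of the 4 cases and Shmt2 gained as lower in the first 3. The median log2 fold change of the 10 was −0.19, beside 0.013 for all genes tested.

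**Figure D1:**
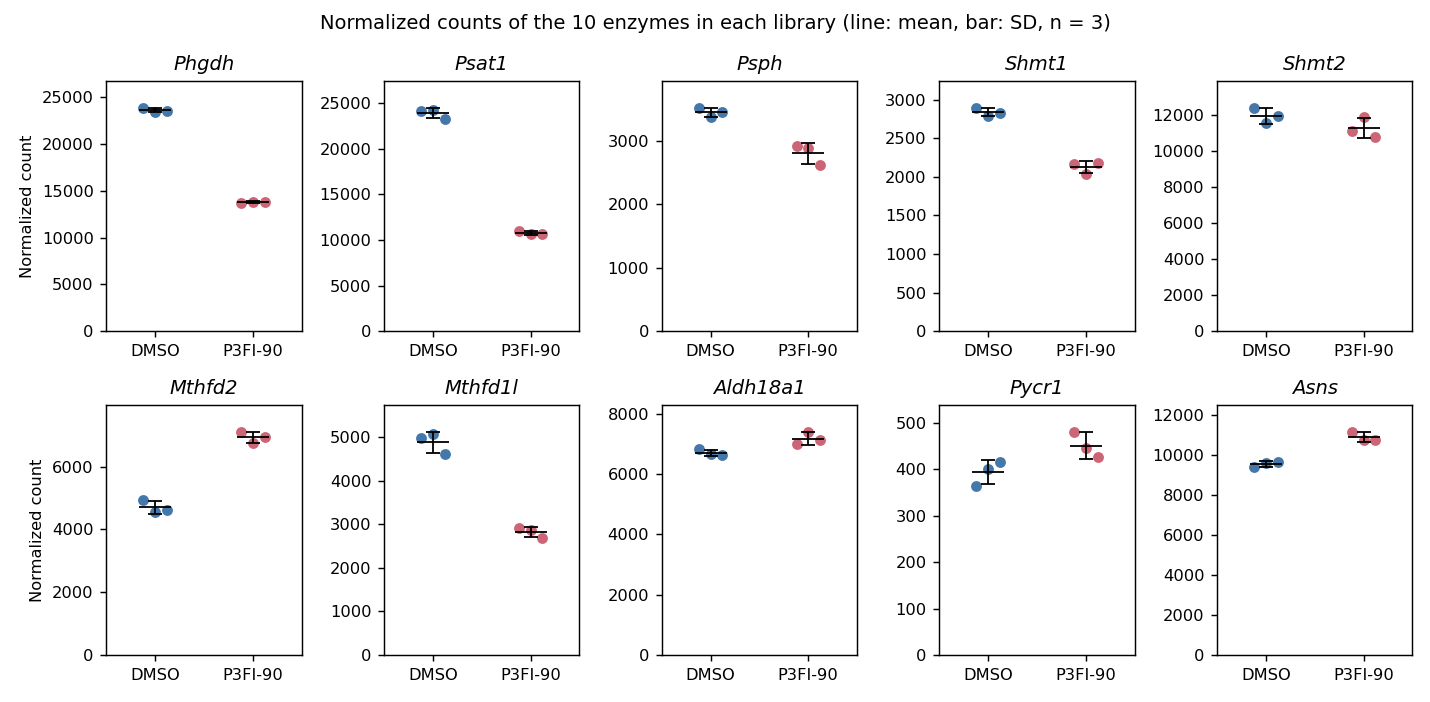
Normalized counts (scaled by TMM to a common library size, each vertical axis from 0) of the 10 enzymes in the 3 DMSO and 3 P3FI-90 libraries. Points are libraries, lines are means and bars are SD (n = 3). Phgdh, Psat1, Psph, Shmt1 and Mthfd1l are lower in all 3 P3FI-90 libraries, Mthfd2, Aldh18a1, Pycr1 and Asns are higher, and Shmt2 overlaps.

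Promoter windows of the 10 genes were searched for 5 fixed motifs on both strands, from 250 bases before to 50 bases after each RefSeq start. The core of the C/EBP-ATF composite element, TGATGNAA, was in the windows of Asns and Pycr1, 2 of the 10 genes, and in 3.97% of all 32851 windows of this length. It began 23 bases before the start of Asns and 103 bases before that of Pycr1, on the sense strand. The E-box CACGTG, which MYC and other factors bind, was in the window of Aldh18a1 alone and in 7.15% of all windows. The full cAMP response element TGACGTCA was in none of the 10 and in 1.79% of all windows. The GC box GGGCGG was in the windows of 7 genes (35.7% of all windows), and CCAAT in those of 6 (37.4% of all windows). The 130 bases before the start are shown for the genes with the composite core and, beside them, for Mthfd2, the gene with the highest fold change, and for Psat1 and Phgdh, those with the highest levels in DMSO. Sequences and positions are from RefSeq on GRCm38.p6, while the counts were made on GRCm39, and capitals mark the composite core.
Asns, chr6:7693210-7693339, - strand: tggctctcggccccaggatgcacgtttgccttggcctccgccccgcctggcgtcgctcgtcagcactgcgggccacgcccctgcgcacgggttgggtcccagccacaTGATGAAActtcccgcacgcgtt
Pycr1, chr11:120643749-120643878, - strand: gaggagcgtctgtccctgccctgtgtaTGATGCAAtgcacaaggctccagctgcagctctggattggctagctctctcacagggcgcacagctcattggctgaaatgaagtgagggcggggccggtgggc
Mthfd2, chr6:83317605-83317734, - strand: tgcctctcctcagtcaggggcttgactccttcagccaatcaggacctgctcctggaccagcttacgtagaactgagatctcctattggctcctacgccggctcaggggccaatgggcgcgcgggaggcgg
Psat1, chr19:15925060-15925189, - strand: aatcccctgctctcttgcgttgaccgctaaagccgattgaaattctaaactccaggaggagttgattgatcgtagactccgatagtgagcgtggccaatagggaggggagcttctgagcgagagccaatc
Phgdh, chr3:98339970-98340099, - strand: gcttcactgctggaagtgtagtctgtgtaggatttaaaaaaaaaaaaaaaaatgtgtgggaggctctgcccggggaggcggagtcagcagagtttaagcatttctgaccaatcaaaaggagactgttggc
For Psat1, which has 2 starts in this table, the stretch before the upstream start is printed. A match is a run of letters and not a measured binding site.

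With TMM scaling, transcripts of the serine synthesis enzymes were all lower, but unevenly. Psat1 (ENSMUSG00000024640), the phosphoserine aminotransferase, had 24159, 24273 and 23248 normalized counts in the DMSO libraries and 10949.7, 10592 and 10593.5 after P3FI-90. Each P3FI-90 library was below 10950 normalized counts, far from the lowest DMSO library, and the log2 fold change was −1.16 (SE 0.032). Only 7.92% of all genes tested had a lower fold change. Phgdh (ENSMUSG00000053398), the dehydrogenase that commits 3-phosphoglycerate to serine, had 23891, 23444 and 23587 normalized counts in DMSO and 13736, 13848 and 13863 after P3FI-90. The SD was 229 in DMSO and 69.4 after P3FI-90 (n = 3), and its log2 fold change was −0.77 (SE 0.028), a 1.71-fold lower level. Of the 50-base windows of its annotated transcripts, 47.8% also occur in other genes, mostly Gm7901 and Gm9347, which are not named in the table, so its absolute count depends on how shared reads were assigned. Psph (ENSMUSG00000029446), the phosphatase that releases serine, had 3522, 3384 and 3456 normalized counts in DMSO and 2918, 2886 and 2618.5 after P3FI-90. The groups did not overlap, and the log2 fold change of −0.30 (SE 0.049) was the smallest of the 3. With total counts it was −0.084 and did not pass the threshold in edgeR's test (adjusted p = 0.129). Exons of Psph share 452 bases (10.4% of its exonic length) with Cct6a on the opposite strand, a gene with 34608 normalized counts in DMSO and a log2 fold change of −1.12. As the use of strand in counting is not stated, reads of Psph and Cct6a over those bases cannot be told apart.

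The pair of serine hydroxymethyltransferases differed. Shmt1 (ENSMUSG00000020534), the cytosolic form, had 2892, 2792 and 2821 normalized counts in DMSO and 2168, 2037 and 2181 after P3FI-90. All 3 treated libraries were lower, by a log2 fold change of −0.41 (SE 0.048). Its exons share 184 bases with Smcr8 on the opposite strand, whose own log2 fold change was 1.38, in the other direction. Shmt2 (ENSMUSG00000025403), the mitochondrial form, had 12404, 11543 and 11944 normalized counts in DMSO and 11136, 11895 and 10808 after P3FI-90. The second P3FI-90 library lay among the DMSO libraries, and the log2 fold change was −0.085 (SE 0.041).

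The mitochondrial folate genes went opposite ways. Mthfd2 (ENSMUSG00000005667), the methylenetetrahydrofolate dehydrogenase and cyclohydrolase, had 4927, 4549 and 4613 normalized counts in DMSO and 7112, 6743 and 6932 after P3FI-90. It was higher in every treated library, with a log2 fold change of 0.56 (SE 0.040), the largest among the 10, and 74.5% of all genes tested had a lower one. Mthfd1l (ENSMUSG00000040675), the formyltetrahydrofolate synthetase that acts after it and releases formate, had 4985, 5070.3 and 4614 normalized counts in DMSO and 2922, 2863 and 2692 after P3FI-90. Its log2 fold change was −0.79 (SE 0.047), a 1.73-fold lower level. Neither gene overlaps another gene's exons or shares 50-base transcript windows with one.

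The proline and asparagine genes had small positive differences. Aldh18a1 (ENSMUSG00000025007), which makes pyrroline-5-carboxylate from glutamate, had 6814, 6659 and 6639 normalized counts in DMSO and 7008, 7409 and 7112 after P3FI-90. The groups were separate, with SDs of 95.6 in DMSO and 208 after P3FI-90, but the log2 fold change was only 0.098 (SE 0.035). Pycr1 (ENSMUSG00000025140), the mitochondrial reductase for the last step to proline, had 365, 401 and 415 normalized counts in DMSO and 482, 447 and 426 after P3FI-90. The lowest treated and highest DMSO libraries were close, and the log2 fold change of 0.20 had the largest error of the 10 (SE 0.10). Asns (ENSMUSG00000029752), the asparagine synthetase, had 9391, 9630.04 and 9651 normalized counts in DMSO and 11193, 10763 and 10769 after P3FI-90. All 3 treated libraries were higher, by a log2 fold change of 0.19 (SE 0.033).

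How the libraries are scaled matters for the smaller of these values. The fold changes above use TMM, which centres a trimmed mean of the log ratios between libraries on 0. It presumes that most genes do not change, and here 79.3% of all genes tested passed the threshold. Scaling by total counts instead raised the log2 fold changes of all genes tested by a median of 0.21. Under total counts the sign turned for Shmt2 (0.13), Psph was close to 0 (−0.084), and the other 8 genes had the sign they had with TMM, with Psat1 at −0.94, Phgdh at −0.56, Mthfd1l at −0.58 and Mthfd2 at 0.78. Under DESeq2 size factors and upper quartiles, all 10 had the sign they had with TMM. Leaving out any 1 library also left the sign of all 10 as it was with all 6, Psat1 ranging from −1.18 to −1.15, Mthfd2 from 0.53 to 0.59 and Pycr1 from 0.14 to 0.23.

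**Figure D2:**
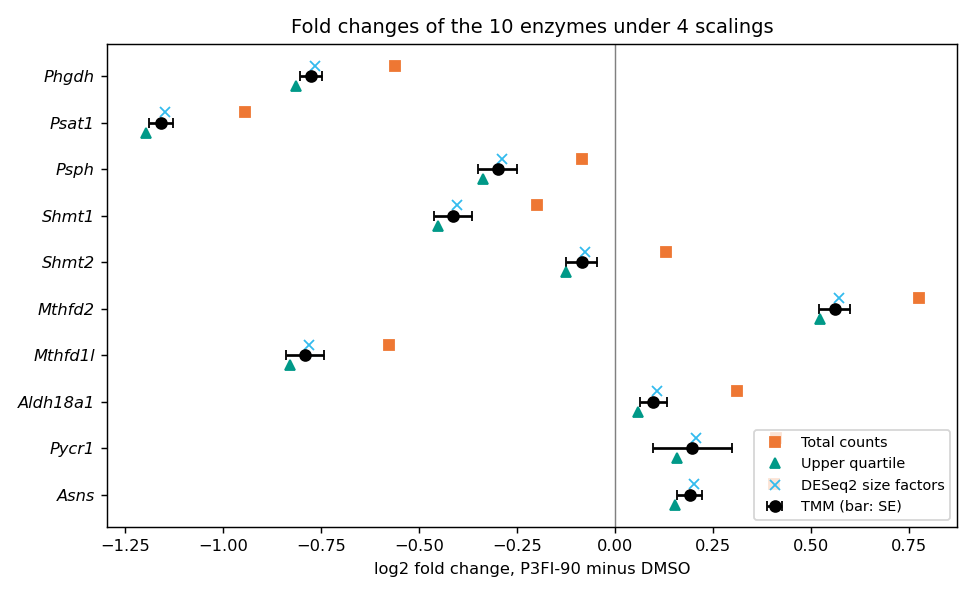
The log2 fold change (P3FI-90 minus DMSO) of each enzyme under 4 scalings of the libraries, with bars for the SE of the fit with TMM. Points of the other scalings are offset vertically for legibility. Total counts move each gene to the right by a like amount, and only Shmt2 crosses 0.

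Ratios between genes within a library do not depend on that scaling. A share of all counts of a library does, since comparing it between the groups amounts to scaling by total counts. The 10 genes together took 0.244% ± 0.00285 (SD, n = 3) of the counts of a DMSO library and 0.212% ± 0.00256 of those of a P3FI-90 library. Psat1 and Phgdh made up 51.7% ± 0.31 of the counts of the 10 in DMSO and 35.5% ± 0.40 after P3FI-90. The ratio of Shmt2 to Shmt1 counts was 4.29, 4.13 and 4.23 in the DMSO libraries and 5.14, 5.84 and 4.96 in the P3FI-90 libraries. So the mitochondrial form was the higher in counts in both groups, and more so in each treated library. The ratio of Mthfd2 to the cytosolic Mthfd1 was 0.670 ± 0.035 in DMSO and 2.42 ± 0.097 after P3FI-90, a 3.61-fold difference. Mthfd1l, though lower itself, was also higher relative to Mthfd1, with a ratio of 0.698 ± 0.053 in DMSO and 0.985 ± 0.028 after P3FI-90. Against Mthfd2l, the paralog of Mthfd2, the ratio of Mthfd2 was 6.09 ± 0.40 in DMSO and 17.7 ± 1.78 after P3FI-90. In proline metabolism, the ratio of Pycr1 to the cytosolic paralog Pycr3 was 0.343 ± 0.042 in DMSO and 0.600 ± 0.073 after P3FI-90. The ratio of Aldh18a1 to Aldh4a1, which breaks down the intermediate that Aldh18a1 makes, moved the other way, from 25.8 ± 2.85 to 13.0 ± 0.12. For Aldh4a1, 30.03% of the 50-base transcript windows also occur in Gm21969, which overlaps it. No ratio was formed for Asns and Aspg, an asparaginase gene below the filter on low counts, which had 0, 2 and 0 counts in DMSO and 3, 0 and 0 after P3FI-90.

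**Figure D3:**
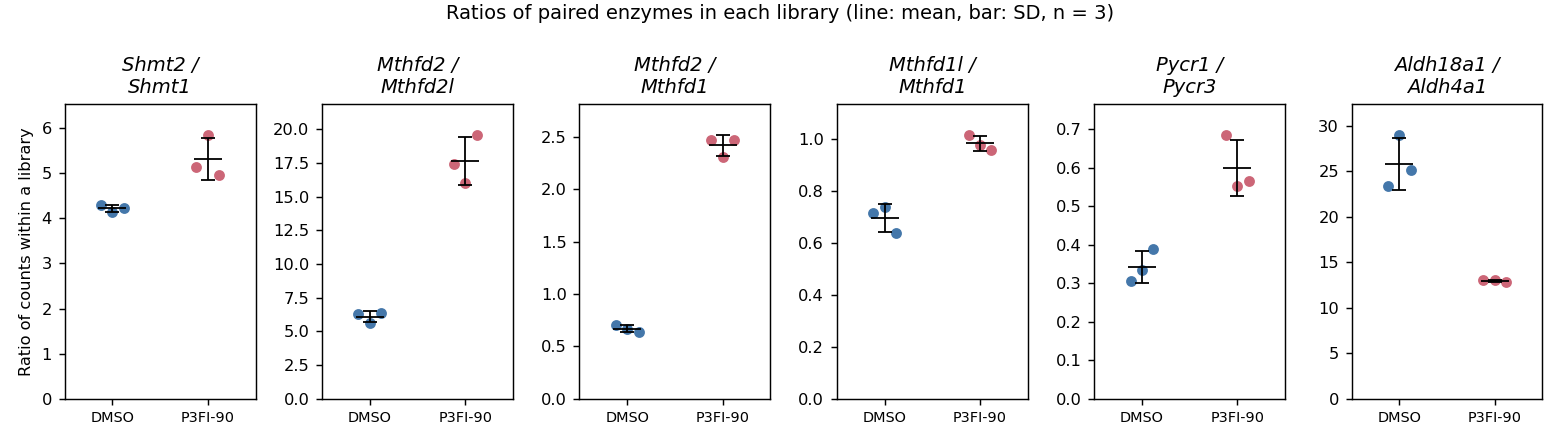
Ratios of the counts of 2 genes within each library (vertical axes from 0) for 6 pairs of enzymes in DMSO and P3FI-90. Points are libraries, lines are means and bars are SD (n = 3). In 5 pairs every P3FI-90 library is above every DMSO library, and Aldh18a1 to Aldh4a1 is below.

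Between genes, levels can be compared per transcript length only. In CPM per kilobase of the longest annotated transcript, Phgdh (356 ± 3.43, SD, n = 3) and Psat1 (260 ± 6.11) were the highest of the 10 in DMSO. They were followed by Shmt2 (149 ± 5.36), Asns (135 ± 2.05), Mthfd2 (64.2 ± 2.77), Aldh18a1 (54.2 ± 0.77), Mthfd1l (37.8 ± 1.88), Psph (34.2 ± 0.68), Shmt1 (28.3 ± 0.51) and Pycr1 (3.85 ± 0.25). No neighbours in this order overlapped in their ranges over the 3 libraries. After P3FI-90, Phgdh was still the highest (208 ± 1.04), but Psat1 (117 ± 2.25) came after Asns (154 ± 3.49) and Shmt2 (140 ± 6.94). Psph (27.8 ± 1.63) then lay above Mthfd1l (21.9 ± 0.92), whose range overlapped that of Shmt1 (21.2 ± 0.80). Pycr1 was the lowest in both groups, at 4.42 ± 0.28 after P3FI-90. Where the union of all annotated exons was taken as the length, Mthfd2 and Aldh18a1 changed places in DMSO.

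**Figure D4:**
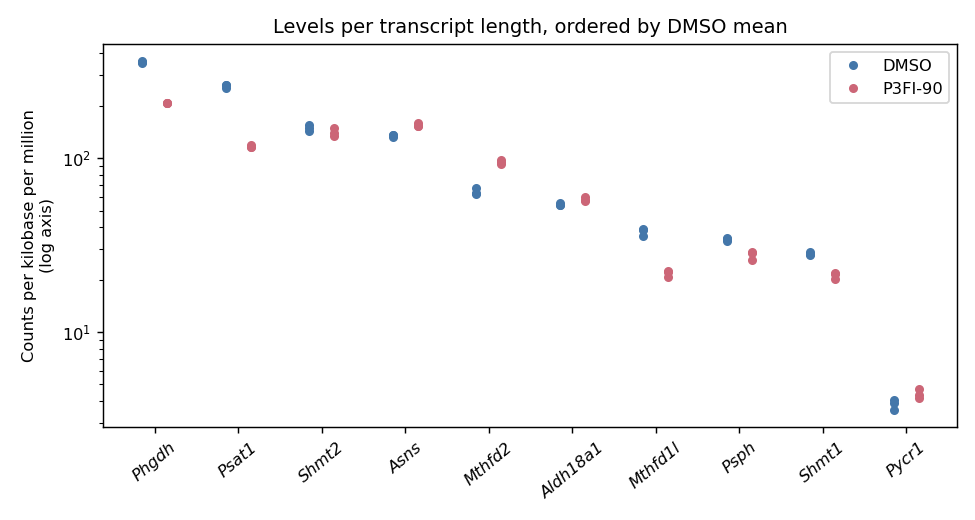
CPM per kilobase of transcript (log axis) of the 10 enzymes in each library, ordered by their mean in DMSO. Phgdh and Psat1 lead in DMSO, and after P3FI-90 Psat1 lies below Asns and Shmt2.

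Genes around these enzymes were taken from 6 lists of related pathways, with 85 genes in all. The lists were written with earlier results of these data known. Most genes named from them were picked for the largest called rises and falls in this same comparison. The counts of genes called and the adjusted p-values below are therefore a description. Of the 72 that passed the filter, 24 rose and 37 fell by the same test and threshold, and 11 did not pass, beside 39.9% higher and 39.4% lower over all genes tested. With total counts, 31 were higher and 29 lower. Their median log2 fold change was −0.21. The shares over all genes tested, 39.9% higher and 39.4% lower, stand beside the counts of each list below as well.

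In the serine and glycine list, 3 of 11 tested genes rose and 5 fell (median log2 fold change 0.24), or 4 and 3 with total counts. Gcat, which makes glycine from a product of threonine breakdown, fell from 5689 ± 107 to 986 ± 18.8 normalized counts (errors are SD over 3 libraries), or by 2.53 on the log2 scale (SE 0.044, adjusted p = 8.45e-15). Amt, the aminomethyltransferase of the glycine cleavage system, rose from 94.0 ± 14.1 to 256 ± 33.1 (log2 fold change 1.44, SE 0.18, adjusted p = 3.35e-06). Sds, the serine dehydratase, passed the filter on low counts through the P3FI-90 libraries alone, so its place among the genes that rose is a description. It had 0 counts in all DMSO libraries and 11, 21 and 19 after P3FI-90. That is at least 14.9-fold higher against a floor of 3 counts over the group. With Sds at that bound the medians of this list and of all lists are the same, since it lies above them either way. Gnmt, the glycine N-methyltransferase, fell by 1.07 on the log2 scale (SE 0.34, adjusted p = 0.0108), a call that was lost without the first DMSO library (log2 fold change −0.88, adjusted p = 0.0635).

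In the folate list, 5 of 15 tested genes rose and 7 fell (median log2 fold change 0.043), or 8 and 6 with total counts. The cytosolic Mthfd1 fell from 7017 ± 196 to 2869 ± 62.5 normalized counts (log2 fold change −1.29, SE 0.037, adjusted p = 8.21e-13), and Mthfd2l from 773 ± 40.5 to 395 ± 35.3 (log2 fold change −0.97, SE 0.092, adjusted p = 2.32e-07). Fpgs, which adds the glutamate tail that keeps folates in the cell, fell from 2397 ± 94.3 to 1022 ± 55.5 (log2 fold change −1.23, SE 0.056, adjusted p = 8.56e-11). Aldh1l2, a mitochondrial enzyme that oxidises formyltetrahydrofolate, rose from 35.4 ± 6.33 to 191 ± 28.0 (log2 fold change 2.44, SE 0.23, adjusted p = 2.02e-07).

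In the proline and glutamate list, 4 of 13 tested genes rose and 8 fell (median log2 fold change −0.24), or 4 and 5 with total counts. Pycr3, the cytosolic paralog of Pycr1, fell by 0.61 on the log2 scale (SE 0.075, adjusted p = 3.81e-06). Prodh, which starts proline breakdown, fell from 974 ± 34.7 to 370 ± 39.3 normalized counts (adjusted p = 3.35e-09), while Aldh4a1, which completes it, rose from 262 ± 30.8 to 553 ± 17.4 (adjusted p = 5.14e-07). P4ha1, a subunit of the enzyme that hydroxylates proline in collagen, rose from 4564 ± 167 to 12493 ± 254 (log2 fold change 1.45, SE 0.037, adjusted p = 2.41e-13). The related P4ha3 rose from 15.2 ± 9.01 to 74.0 ± 25.9. It had 6, 20 and 15 raw counts in DMSO and passed the filter on low counts through the P3FI-90 libraries, so its rise is a description.

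In the aspartate and asparagine list, 3 of 11 tested genes rose and 6 fell (median log2 fold change −0.27), or 5 and 5 with total counts. The alanine aminotransferase genes Gpt and Gpt2 rose by 1.06 (SE 0.13, adjusted p = 2.93e-06) and 0.28 (SE 0.037, adjusted p = 7.34e-06) on the log2 scale. Slc25a13, a mitochondrial aspartate-glutamate carrier, fell from 3487 ± 54.7 to 1361 ± 145 normalized counts (log2 fold change −1.36, SE 0.067, adjusted p = 1.87e-10). Aspa, which splits N-acetylaspartate, fell from 17.7 ± 5.88 to 2.20 ± 0.64. It had 14, 12 and 24 raw counts in DMSO and passed the filter on low counts through that group alone, so its fall is a description. In the methionine and transsulfuration list, 1 of 8 tested genes rose and 6 fell (median log2 fold change −1.23), or 1 and 5 with total counts. Mtap, of methionine salvage, fell from 31014 ± 202 to 7737 ± 36.9 (log2 fold change −2.00, SE 0.029, adjusted p = 1.28e-15). Cth, which makes cysteine from cystathionine, fell from 1439 ± 64.0 to 403 ± 30.1 (log2 fold change −1.84, SE 0.076, adjusted p = 2.86e-11). The gene that rose was Ahcyl2, a relative of adenosylhomocysteinase, by 0.88 (SE 0.059, adjusted p = 4.99e-09).

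In the list of transcription and stress control, 8 of 14 tested genes rose and 5 fell (median log2 fold change 0.40), or 9 and 5 with total counts. Atf4 rose from 8090 ± 422 to 11911 ± 279 normalized counts (log2 fold change 0.56, SE 0.040, adjusted p = 1.06e-08). Atf5, a related factor, rose from 849 ± 91.5 to 5142 ± 100.5 (log2 fold change 2.60, SE 0.066, adjusted p = 2.26e-13), and Ddit3, which encodes CHOP, from 193 ± 0.61 to 3504 ± 156 (log2 fold change 4.18, SE 0.063, adjusted p = 2.54e-15). Cebpb fell by 0.78 (SE 0.070, adjusted p = 1.31e-07) and Nfe2l2, which encodes NRF2, by 0.69 (SE 0.040, adjusted p = 9.01e-10) on the log2 scale. Binding or activity of the factors was not measured, and their part in the values of the enzymes was not tested.

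**Figure D5:**
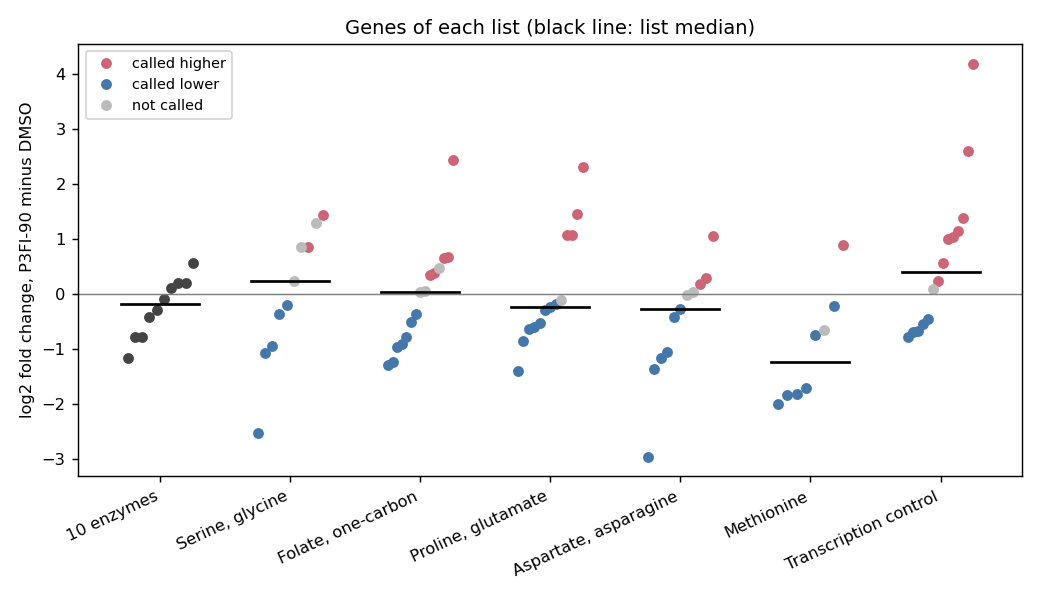
The log2 fold change (P3FI-90 minus DMSO) of each tested gene of the 10 enzymes (dark points, calls not shown) and of the 6 pathway lists (red, called higher, blue, called lower, grey, not called, with edgeR's adjusted p and a threshold of 0.05). Black lines are list medians, from −1.23 for methionine to 0.40 for transcription control, and Sds, at 0 counts in DMSO, is not drawn.

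For a few members, the genes with the most similar course over the 6 libraries were found by the root mean square difference in centred log2 CPM. For Psat1 they were Xrcc5, Fbxo2 and Tmeff1 (0.021, 0.023 and 0.026), for Shmt2 they were Zc3h18, Tars1 and Hnrnpul1 (0.017, 0.019 and 0.020), and for Asns they were Wsb2, Wwc2 and Foxm1 (0.012, 0.014 and 0.019). The 6 libraries form only 2 groups, so genes with a like fold change and a small spread come out as alike.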

How the data were processed

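Transcriptome libraries of 4T1 cells (3 DMSO, 3 P3FI-90) were analysed from the table the authors deposited, which holds raw read counts for each gene. The submitters' processing notes name CASAVA, HISAT2, StringTie and GRCm39, while the annotation, the counter and the strandedness are not given in the sources used here. The study's methods name limma for differential expression. Of 22401 rows, 296 carrying identifiers of transcripts (0.483% to 0.556% of counts) were left out, and 6452 named genes were at 0 in every library.

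Low genes were removed with filterByExpr (R 4.3.3, edgeR 4.0.16), and the rest were normalized by TMM and compared by edgeR's quasi-likelihood test with Benjamini-Hochberg adjustment over 12288 genes. Normalized counts are scaled to the mean effective library size. The common biological coefficient of variation was 0.0648. With 3 libraries against 3, an exact permutation test cannot give a p below 0.1. The chi-square between libraries of a group was 5.44 to 8.43 per gene, above counting noise. Lengths and shared 50-base windows came from GENCODE M21, where 16 of the 16 genes modelled were found by identifier, and promoters from RefSeq, where all 10 members matched by symbol. A floor of 3 counts covers counting error only. The test was also run on simulated counts for this comparison, with 11857 genes of which 200 were changed. It found 99 of 100 genes changed by 1.5-fold and 98 of 100 changed by 2-fold, with 6.64% false calls. In the data, 79.3% of all genes tested passed the threshold, and the share of false calls with so many genes differing was not tested.

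The members and lists were chosen with earlier results of these data known. Named genes are the members, both genes of fixed pairs, Atf4, the 2 largest called rises and falls of each list, and the 3 genes most like Psat1, Shmt2 and Asns. Cct6a, Smcr8, Gm7901, Gm9347 and Gm21969 were added for overlap. Some genes that fall under this rule are not reported here. Alternatives were other scalings (DESeq2 size factors, total counts, upper quartiles), filters (none, or 10 counts in every library) and tests (DESeq2 1.42.0, limma-voom and limma 3.58.1 on log2(CPM + 1)), a block for the replicate number, and leaving out each library.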

Additional observations from a re-analysis of the deposited data

How the results depend on the processing

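Across 15 alternatives, scaling by total counts moved these values most. It gave 5 members called higher in place of 3, and a median log2 fold change of 0.022 over the 10 enzymes in place of −0.19. Under the other 14 alternatives that median lay between −0.23 and −0.16. Over all genes, total counts gave 6179 higher and 3641 lower genes in place of 4908 and 4841, and over the 85 genes of the pathway lists 31 higher and 29 lower in place of 24 and 37. The replicate numbers were not treated as pairs, since equally numbered libraries did not deviate together (correlations of −0.049, −0.031 and −0.027). With the replicate number as a block, 4802 genes were higher and 4722 lower, and 3 members were higher and 5 lower, with a median of −0.19. Upper quartiles gave 2 members higher and 6 lower, and leaving out 1 library gave 2 to 3 higher and 5 to 6 lower. The alternatives other than these and total counts gave 3 and 5. Aldh18a1 had 0.060 with upper quartiles and 0.31 with total counts. Counting error weighs most on Pycr1, which had 333 to 515 counts per library, the lowest of the 10.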

Other observations

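Of the 85 genes of the pathway lists, 13 did not pass the filter on low counts, and 9 of them had 0 counts in every library.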
